A study of Mus musculus with 12 samples.

Results

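Translation elongation adds amino acids to a growing protein, and termination and recycling release the protein and split the ribosome. The genes described here encode 10 factors of these steps in the mouse: Eef1a1, Eef1b2, Eef1d, Eef1g, Eef2, Eef2k, Eif5a, Gspt1, Etf1 and Abce1. They were taken by Ensembl gene ID. All 10 were among the 22520 gene IDs of the count tables, and all 10 passed the filter on low counts that left 6692 genes for testing.

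The libraries were ribosome profiling libraries, which sequence the mRNA stretches that ribosomes shield from nuclease. The cells were a mouse B cell lymphoma line, 19PP, of which the growth protocol names a reporter-negative subline, 19DN. The line arose in a Rag2-/-γC-/- host given bone marrow cells carrying Cγ1-Cre and the Myc/P110*flSTOP alleles, so a Myc transgene and a P110* (PI3 kinase) transgene were shared by every group. GFP and hCD2 reporters had been removed with a Flp plasmid. The groups crossed 3 forms of RPL12 (uL11), a protein of the large ribosomal subunit, with 2 cell states. RPL12 was wild type (WT), carried alanine in place of serine 38 (S38A), which cannot be phosphorylated, or carried aspartate there (S38D), which mimics the charge of a phosphate. Asynchronous cells grew untreated, and mitotic cells were held for 8 hr in nocodazole at 100 ng/mL, washed and kept for 10 min in fresh medium. All 6 groups met cycloheximide at 100 µg/ml at harvest, and each had 2 libraries, called replicates 1 and 2. No label states if a pair of libraries is 2 cultures, how the substitutions were introduced or how many clones stand behind each genotype. The spread behind the p-values is therefore one between libraries and may be technical, and a genotype cannot be told apart from its clone. Mitotic arrest and exposure to nocodazole cannot be told apart either.

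In each elongation cycle eEF1A, with GTP, brings an aminoacyl-tRNA to the ribosome, the eEF1B complex recharges eEF1A with GTP, and eEF2 moves the ribosome on by a codon. eEF1A and eEF2 dock at the base of the ribosomal stalk, where RPL12 lies. eIF5A, the protein that carries the amino acid hypusine, relieves stalled ribosomes and aids termination. At a stop codon eRF1 (Etf1) and its GTPase partner eRF3 (Gspt1) release the protein, and ABCE1 then splits the subunits. Phosphorylation of eEF2 by its kinase eEF2K slows elongation.

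Promoter sequences were set beside the counts because the members differed in how they moved between states. The RefSeq table of promoters for GRCm38.p6 held 7 of the 10 genes; Eef1d, Eef1g and Etf1 had no entry. The 250 bases before the start are shown for Eef1b2, Gspt1, Eef2 and Abce1. Eef1b2 had the highest mitotic fold, and Gspt1 fell in mitotic libraries and was high in S38A. The averaged change of state of Eef2 was not called, and Abce1 rose in mitotic libraries. Capitals mark matches to any of 4 motifs searched on both strands: an E-box (CACGTG), a cAMP response element (TGACGTCA), a TATA box (TATAAA) and an ETS core (CCGGAA). The Eef1b2 window lies at chr1:63176581-63176830 on the plus strand, that of Gspt1 at chr16:11254326-11254575 on the minus strand, that of Eef2 at chr10:81176381-81176630 on the plus strand and that of Abce1 at chr8:79711741-79711990 on the minus strand.
Eef1b2: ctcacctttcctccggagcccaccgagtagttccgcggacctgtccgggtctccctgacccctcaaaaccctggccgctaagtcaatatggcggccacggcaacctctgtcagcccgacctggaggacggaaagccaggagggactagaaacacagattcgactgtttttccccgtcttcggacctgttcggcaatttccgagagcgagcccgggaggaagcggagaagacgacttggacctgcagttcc
Gspt1: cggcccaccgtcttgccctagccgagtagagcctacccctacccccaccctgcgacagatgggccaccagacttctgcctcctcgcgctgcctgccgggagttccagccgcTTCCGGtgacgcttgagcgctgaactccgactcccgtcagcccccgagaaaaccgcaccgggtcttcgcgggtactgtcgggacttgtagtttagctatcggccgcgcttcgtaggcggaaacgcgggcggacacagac
Eef2: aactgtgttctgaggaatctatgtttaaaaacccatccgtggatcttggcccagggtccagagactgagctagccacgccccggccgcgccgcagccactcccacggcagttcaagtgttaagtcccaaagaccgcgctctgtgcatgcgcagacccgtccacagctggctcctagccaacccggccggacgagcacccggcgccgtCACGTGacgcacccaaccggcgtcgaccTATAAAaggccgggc
Abce1: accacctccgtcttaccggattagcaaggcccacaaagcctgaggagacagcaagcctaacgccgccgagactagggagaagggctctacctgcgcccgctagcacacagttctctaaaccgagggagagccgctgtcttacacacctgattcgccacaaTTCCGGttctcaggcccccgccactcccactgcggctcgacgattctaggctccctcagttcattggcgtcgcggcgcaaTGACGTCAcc

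The E-box stood in the windows of Eef2, Eef2k and Eif5a, which makes 3 of 7 genes, and in 6.02% of the 32851 promoters of the table. The ETS core stood in those of Abce1, Eif5a and Gspt1, against 12% of all promoters. The cAMP response element stood in that of Abce1, against 1.55%, and the TATA box in that of Eef2, against 12.4%. Eef1b2 held none of the 4. Genes with an E-box included Eif5a, which rose in mitotic libraries, Eef2k, which fell, and Eef2, whose averaged change was not called. A member was counted if any of its promoter entries matched, and Eif5a had more than a single entry. The percentages instead count each promoter, so counts of members and percentages are not like measures. A match is a description of letters in these windows, and its part in the footprint levels was not tested.

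Coding reads per library ran from 258354 to 505500, and 3 reads were worth 6.16 to 11.7 CPM (counts scaled to the TMM-adjusted total of the tested genes), so the precision for Eef2k and Eef1g, the members with the fewest reads, was low. The share of alignments with several places was 62.3 to 68.3% in asynchronous libraries (median 65.8%) and 65.8 to 73.0% in mitotic ones (median 72.5%). Asynchronous WT cells had 67.3%, S38A 62.5% and S38D 66.1%, and mitotic cells of these genotypes 73.0%, 68.1% and 72.5%. It thus moved with state and was lowest in S38A. Several members, Eef1a1 and Gspt1 among them, have near-identical copies or pseudogenes elsewhere in the genome, which may take or lose such reads, so their values are uncertain to that extent, and the part of this share in the results was not tested. The libraries are bulk samples, so fewer cells and fewer footprints per cell cannot be told apart. A footprint level reflects mRNA abundance together with ribosome occupancy, and no matched mRNA libraries were analysed here. Levels were compared between libraries and never between genes, since coding lengths were not used.

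Between the states, 7 of the 10 factors changed when the genotypes were averaged, with Eef1b2, Eef1d, Eif5a, Etf1 and Abce1 higher in mitotic libraries and Gspt1 and Eef2k lower. Of all genes tested, 38.9% were called at an adjusted p under 0.05, 18.9% as higher and 20.0% as lower. Adjusted p-values here and below come from edgeR's quasi-likelihood F test with Benjamini-Hochberg adjustment over all 6692 genes. The median log2 change was 0.32 over the members and -0.01 over all genes tested. Scaling of the libraries holds the median over all genes near 0, here and below. Higher and lower are thus relative to the other genes, and a change common to all genes would not be seen. Together the 10 genes took 0.590 to 0.711% of coding reads in asynchronous libraries (median 0.653%) and 0.793 to 0.940% in mitotic ones (median 0.837%), with no overlap. Mean CPM went from 673 to 1679 for Eef1b2 and from 821 to 1569 for Eif5a. For Eef2 it went from 2631 to 2499 and for Gspt1 from 281 to 160. The pooled share thus does not stand for each factor, and no such share was taken for other sets of genes. In Eef1b2, Eif5a and Etf1 all 6 mitotic libraries lay above all 6 asynchronous ones, a separation seen in 10.3% of genes tested. Within WT, 7 members were called, 5 higher and 2 lower, against 18.4% of genes tested (9.13% higher and 9.26% lower). Within S38A, 8 were called, 6 higher and 2 lower, against 18.6% (9.03% higher and 9.59% lower). Within S38D, 5 were called, 4 higher and 1 lower, against 21.4% (10.6% higher and 10.9% lower). With 2 libraries a side, states did not overlap for 8 members in WT, 9 in S38A and 8 in S38D, but the same held for 56.6%, 58.6% and 58.0% of genes tested. All 7 averaged calls were kept in the 19 other settings run, which include leaving out each library in turn.

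**Figure D1:**
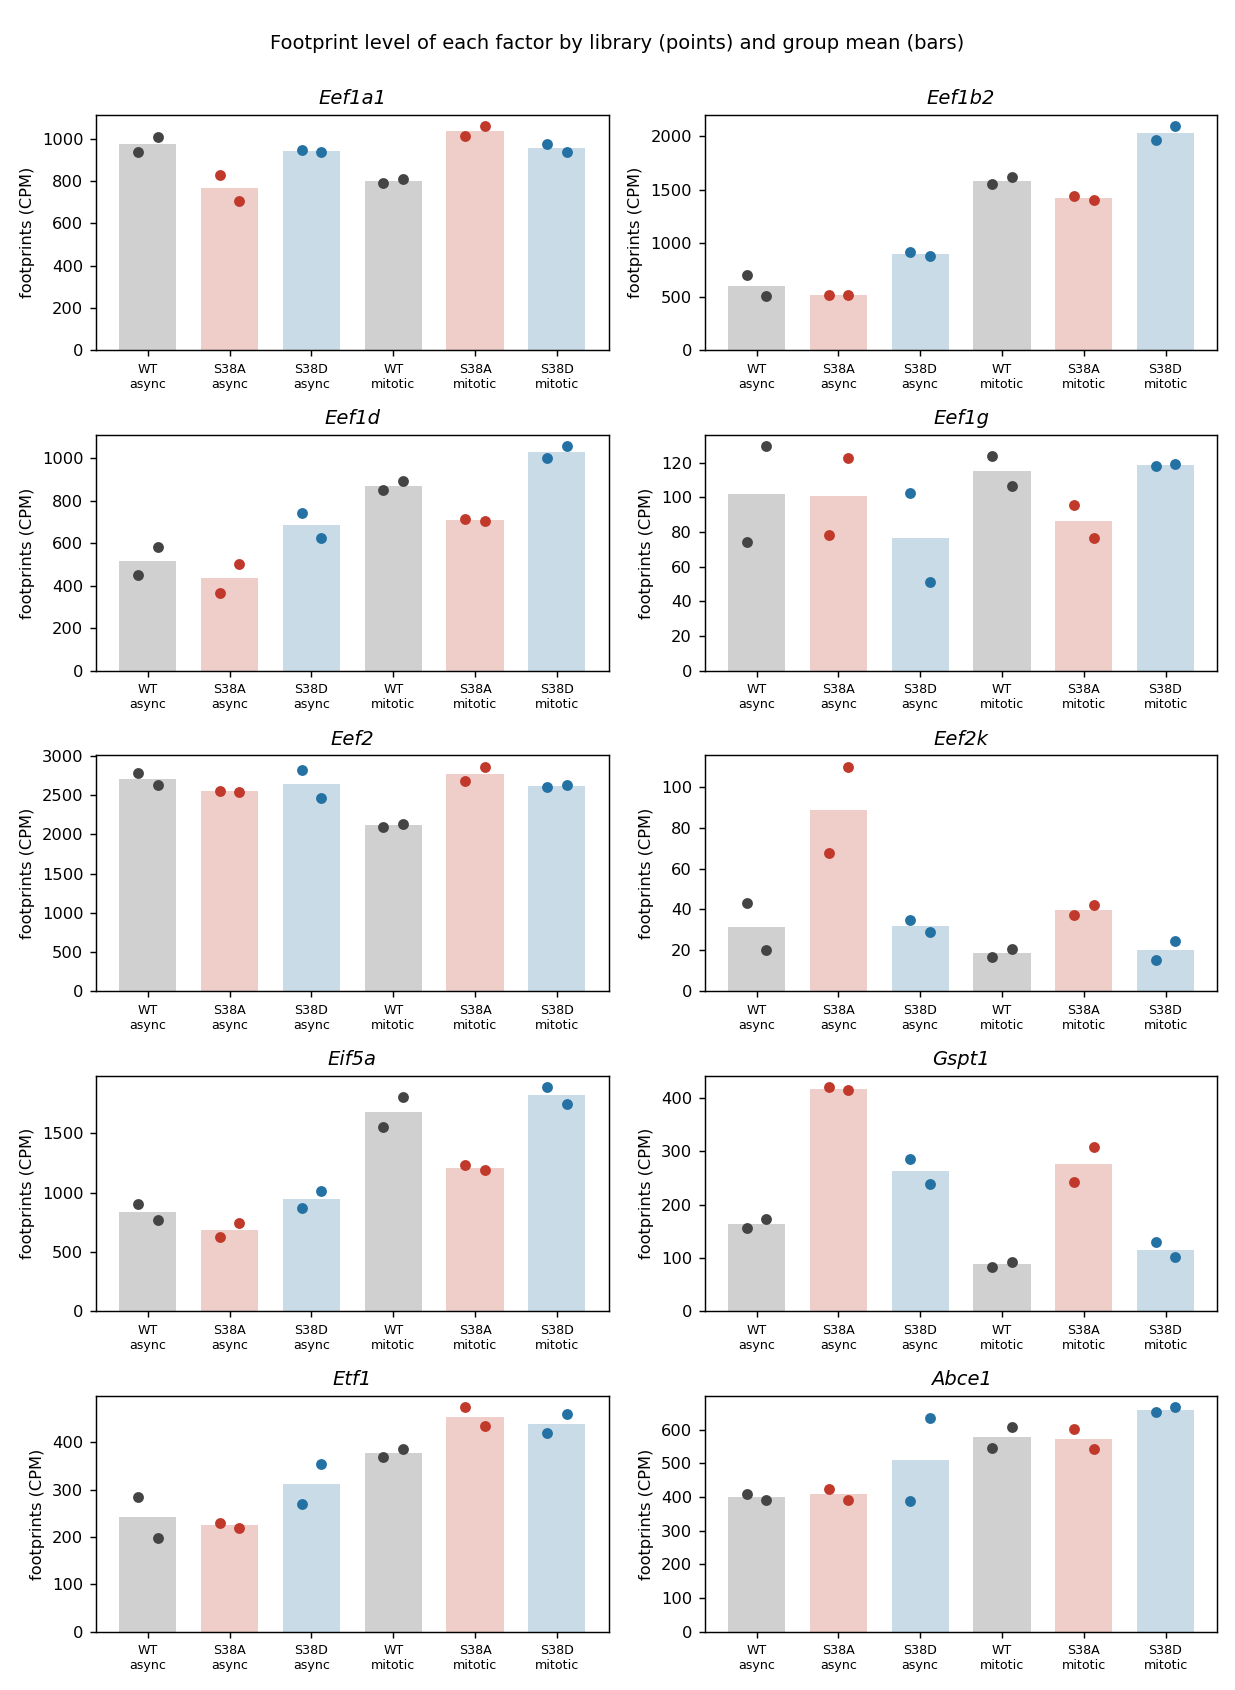
Footprint level of each factor in every library, in CPM on an axis from 0 of its own, by genotype and state; each point is a library and each bar the mean of 2. Eef1b2, Eif5a and Etf1 have all mitotic points above all asynchronous ones, Gspt1 is highest in S38A asynchronous cells, and Eef1a1 and Eef2 lie within narrow ranges.

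The carrier of aminoacyl-tRNA, Eef1a1 (chromosome 9, 78478453 to 78481724, GRCm38.p6), had 938 and 1008 CPM in WT asynchronous cells, 829.5 and 705 in S38A and 948 and 937 in S38D. In mitotic cells it had 791 and 808 CPM in WT, 1011 and 1059.6 in S38A and 973 and 937 in S38D. The mitotic libraries were below the asynchronous ones in WT, above them in S38A and mixed with them in S38D. The averaged log2 change was 0.06 (SE 0.10, 95% interval -0.13 to 0.25, adjusted p = 0.659). In S38A Eef1a1 rose 1.34-fold, by 0.43 in log2 terms (SE 0.13, adjusted p = 0.0149). In WT the log2 change was -0.28 (SE 0.14, adjusted p = 0.142) and in S38D it was 0.02 (SE 0.13, adjusted p = 0.942). The S38A call was lost without S38A asynchronous replicate 2 (adjusted p = 0.236) and without either mitotic replicate (0.0517 without 1 and 0.121 without 2).

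Among the subunits of eEF1B, the exchange factor of eEF1A, Eef1b2 (chromosome 1, 63176831 to 63180486), which encodes the catalytic alpha subunit, rose in every genotype. Asynchronous levels were 699.8 and 504 CPM in WT, 514 and 518 in S38A and 919 and 886 in S38D. Mitotic levels were 1556 and 1614 CPM in WT, 1438 and 1407 in S38A and 1965 and 2094 in S38D. The highest asynchronous library, from S38D, was well under the lowest mitotic one, from S38A. Eef1b2 rose 2.53-fold on average, by 1.34 in log2 terms (SE 0.09, adjusted p = 1.76e-18). The log2 change was 1.41 in WT (SE 0.14, adjusted p = 2.31e-12), 1.46 in S38A (SE 0.14, adjusted p = 6.62e-13) and 1.17 in S38D (SE 0.13, adjusted p = 5.77e-11).

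Eef1d (chromosome 15, 75894796 to 75909784), the delta subunit and a further exchange factor, followed with a smaller change. It had 449.6 and 584 CPM in WT, 368 and 505 in S38A and 741 and 627 in S38D asynchronous cells. In mitotic cells it had 849 and 891 CPM in WT, 712 and 705 in S38A and 999.7 and 1056 in S38D. Groups were apart within each genotype, but the highest S38D asynchronous library exceeded both S38A mitotic ones. Eef1d rose 1.60-fold on average, by 0.68 in log2 terms (SE 0.10, adjusted p = 5.64e-08), with 0.75 in WT (SE 0.15, adjusted p = 1.75e-04), 0.71 in S38A (SE 0.15, adjusted p = 3.59e-04) and 0.59 in S38D (SE 0.14, adjusted p = 0.00127). The S38A call was lost without S38A asynchronous replicate 1 (log2 0.48, adjusted p = 0.0911). The number of Eef1b2 reads per Eef1d read was 0.864 to 1.56 in asynchronous and 1.81 to 2.02 in mitotic libraries. Such a ratio depends on coding lengths, so only its shift between libraries can be read.

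Eef1g (chromosome 19, 8967041 to 8978180), the structural gamma subunit, was counted in 19 to 50 reads a library. It had 74.3 and 129 CPM in WT, 78.3 and 123 in S38A and 103 and 50.9 in S38D asynchronous cells, and 124 and 106 in WT, 95.7 and 76.8 in S38A and 118 and 119 in S38D mitotic cells. The replicates of asynchronous cells lay far apart in each genotype, and no order of the 6 groups could be read, since each overlapped its neighbour. The averaged log2 change was 0.19 (SE 0.17, 95% interval -0.16 to 0.54, adjusted p = 0.41). In S38D it was 0.61 (SE 0.28, adjusted p = 0.118) and passed the threshold without S38D asynchronous replicate 1 (log2 1.21, adjusted p = 0.00991).

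Eef2 (chromosome 10, 81176631 to 81182509), the translocase, had 2779.6 and 2634 CPM in WT, 2551 and 2546 in S38A and 2817 and 2459 in S38D asynchronous cells. In mitotic cells it had 2096 and 2135 CPM in WT, 2676 and 2864 in S38A and 2598 and 2627 in S38D. The WT mitotic libraries were the lowest of the 12. The averaged log2 change was -0.08 (SE 0.08, 95% interval -0.24 to 0.08, adjusted p = 0.461). In WT Eef2 fell by 0.35 in log2 terms (SE 0.11, adjusted p = 0.0192), a call lost without WT asynchronous replicate 1 (adjusted p = 0.0529), WT mitotic replicate 1 (0.112) or WT mitotic replicate 2 (0.0712). The change was 0.12 in S38A (SE 0.11, adjusted p = 0.498) and -0.01 in S38D (SE 0.11, adjusted p = 0.95).

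Eef2k (chromosome 7, 120842642 to 120907219), the kinase of eEF2, rested on 4 to 34 reads a library. Asynchronous levels were 43.0 and 19.9 CPM in WT, 67.8 and 110.0 in S38A and 34.9 and 28.8 in S38D. Mitotic levels were 16.8 and 20.7 CPM in WT, 37.4 and 42.4 in S38A and 15.3 and 24.6 in S38D. The S38A asynchronous pair stood above the other 10 libraries. Averaged over genotypes, Eef2k fell by 0.92 in log2 terms (SE 0.25, adjusted p = 0.00237). It fell by 1.13 in S38A (SE 0.33, adjusted p = 0.0109), a call lost without S38A asynchronous replicate 2 (log2 -0.78, adjusted p = 0.242) or S38A mitotic replicate 1 (log2 -1.02, adjusted p = 0.114). The change was -0.68 in WT (SE 0.54, adjusted p = 0.423) and -0.66 in S38D (SE 0.51, adjusted p = 0.39), with intervals of -1.75 to 0.40 and -1.67 to 0.35. Eef2 reads per Eef2k read ran from 23.1 to 132 in asynchronous and from 67.6 to 170 in mitotic libraries, which overlap.

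Eif5a (chromosome 11, 69916712 to 69921958) rose in mitotic cells of every genotype. It had 903 and 766 CPM in WT, 629 and 741 in S38A and 868 and 1017 in S38D asynchronous cells, and 1553 and 1809 in WT, 1228 and 1187 in S38A and 1889 and 1747 in S38D mitotic cells. The states did not overlap, and S38A was the lowest genotype in each. Eif5a rose 1.90-fold on average, by 0.93 in log2 terms (SE 0.09, adjusted p = 5.12e-13). The log2 change was 1.02 in WT (SE 0.13, adjusted p = 2.27e-08), 0.82 in S38A (SE 0.14, adjusted p = 3.57e-06) and 0.95 in S38D (SE 0.13, adjusted p = 3.40e-08).

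The release factors moved in opposite directions. Etf1 (chromosome 18, 34902785 to 34932008), eRF1, which reads the stop codon, had 285 and 199 CPM in WT, 229.6 and 220.0 in S38A and 271 and 354 in S38D asynchronous cells. In mitotic cells it had 369 and 386 CPM in WT, 474 and 434 in S38A and 419.7 and 459.5 in S38D. All mitotic libraries were higher than all asynchronous ones, by 1.64-fold on average (log2 0.72, SE 0.11, adjusted p = 4.75e-07). The log2 change was 0.66 in WT (SE 0.19, adjusted p = 0.00828), 1.01 in S38A (SE 0.18, adjusted p = 1.01e-05) and 0.50 in S38D (SE 0.17, adjusted p = 0.0257). The WT call was lost without WT asynchronous replicate 2 (log2 0.41, adjusted p = 0.276), without WT mitotic replicate 2 (0.59, adjusted p = 0.0954) and with DESeq2 (adjusted p = 0.0508). The S38D call was lost with DESeq2 (adjusted p = 0.0682), with no filter (0.0762) and without S38D asynchronous replicate 1 (log2 0.30, adjusted p = 0.307), mitotic replicate 1 (adjusted p = 0.0582) or mitotic replicate 2 (adjusted p = 0.19).

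Gspt1 (chromosome 16, 11216240 to 11254325), eRF3a, the GTPase that drives eRF1, had 156 and 172 CPM in WT, 420.0 and 414 in S38A and 285 and 239 in S38D asynchronous cells. In mitotic cells it had 83.8 and 93.3 CPM in WT, 243 and 307 in S38A and 129.7 and 102 in S38D. Within each genotype both mitotic libraries were below both asynchronous ones, while the S38A mitotic libraries lay above the WT asynchronous ones. Gspt1 was 1.79-fold lower in mitotic libraries on average (log2 -0.84, SE 0.13, adjusted p = 1.85e-07). It fell by 0.89 on the log2 scale in WT (SE 0.25, adjusted p = 0.00816), by 0.61 in S38A (SE 0.17, adjusted p = 0.00608) and by 1.19 in S38D (SE 0.22, adjusted p = 2.15e-05). The WT call was lost without WT asynchronous replicate 2 (log2 -0.80, adjusted p = 0.111) or WT mitotic replicate 1 (log2 -0.82, adjusted p = 0.0644). The S38A call was lost with DESeq2 (adjusted p = 0.0784), without S38A asynchronous replicate 1 (log2 -0.60, adjusted p = 0.0547) and without S38A mitotic replicate 1 (log2 -0.43, adjusted p = 0.202).

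Set against each other within a library, Gspt1 reads per Etf1 read fell from a median of 0.960 in asynchronous libraries (0.548 to 1.88) to 0.275 in mitotic ones (0.221 to 0.707). The WT values were 0.548 and 0.867 asynchronous and 0.227 and 0.242 mitotic. Those of S38A were 1.83 and 1.88 asynchronous and 0.512 and 0.707 mitotic, and those of S38D were 1.05 and 0.675 asynchronous and 0.309 and 0.221 mitotic. The ratio was lower in mitotic cells within each genotype and highest in S38A in both states, and the S38A mitotic values overlapped those of WT asynchronous cells. No test was run on the ratios.

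Abce1 (chromosome 8, 79683442 to 79711740), the recycling ATPase, had 410.5 and 391 CPM in WT, 425 and 391 in S38A and 388 and 633 in S38D asynchronous cells, and 547 and 609 in WT, 602 and 543 in S38A and 652 and 667 in S38D mitotic cells. Only S38D asynchronous replicate 2 reached into the mitotic range. Abce1 rose 1.38-fold on average, by 0.46 in log2 terms (SE 0.10, adjusted p = 2.61e-04). The change was 0.53 in WT (SE 0.17, adjusted p = 0.0191), 0.49 in S38A (SE 0.16, adjusted p = 0.0253) and 0.37 in S38D (SE 0.16, adjusted p = 0.0804), where it passed the threshold without asynchronous replicate 2 (log2 0.75, adjusted p = 7.39e-04). The WT call was lost with DESeq2 (adjusted p = 0.0962) and without asynchronous replicate 1 (0.0765), asynchronous replicate 2 (0.131) or mitotic replicate 2 (0.227). The S38A call was lost with DESeq2 (adjusted p = 0.128) and without any one of its 4 libraries, with adjusted p-values of 0.0908 and 0.177 without asynchronous replicates 1 and 2 and 0.194 and 0.0599 without mitotic replicates 1 and 2.

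**Figure D2:**
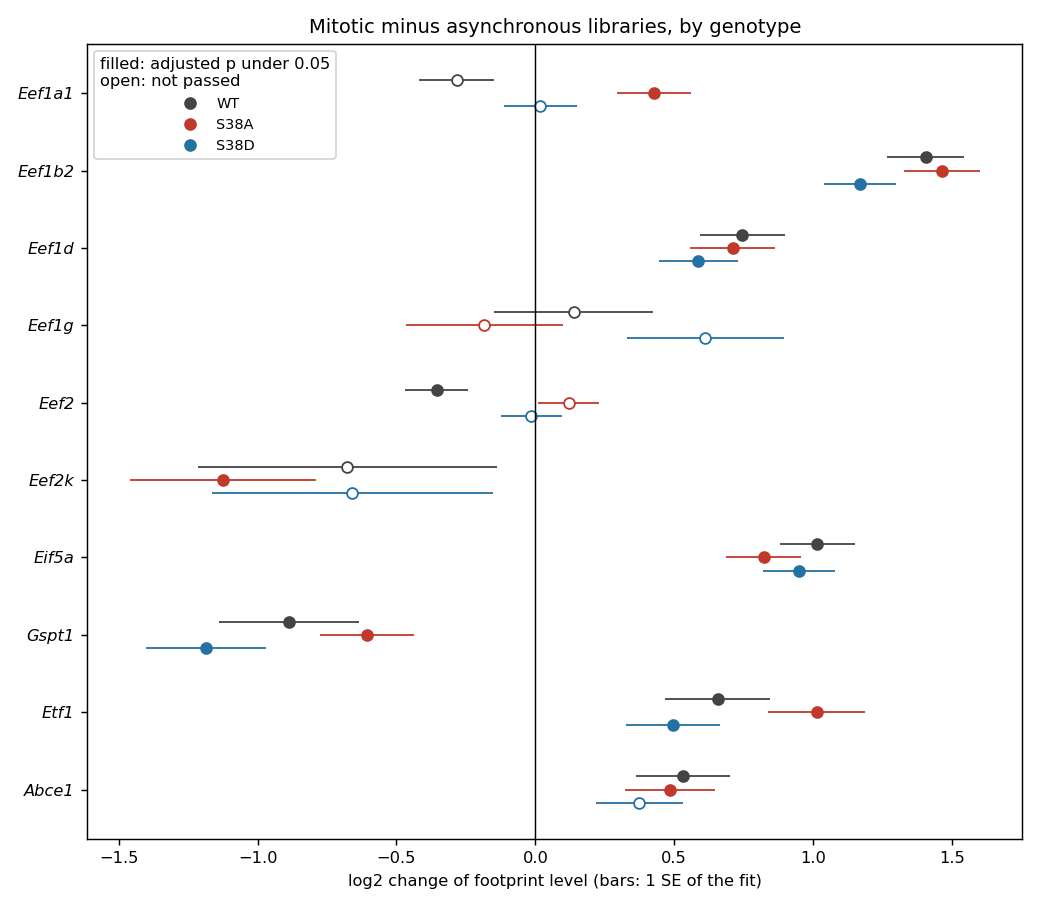
Log2 change of each factor from asynchronous to mitotic libraries, within each genotype; points are edgeR estimates, filled where the adjusted p is under 0.05, and lines span 1 SE to each side. Eef1b2, Eif5a, Etf1, Eef1d and Abce1 lie right of 0 in every genotype and Gspt1 and Eef2k left of it. Eef1a1 is negative in WT and positive in S38A.

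Within each state S38A, which lacks the phosphorylatable serine, was compared with WT, and a difference cannot be told apart from one between clones. Gspt1 was the member called in both states. In asynchronous cells 2 of 10 members were called, both higher in S38A, against 9.32% of genes tested (5.86% higher and 3.47% lower). In mitotic cells 4 were called, 3 of them higher, against 13.2% (7.79% higher and 5.44% lower). For asynchronous cells the median log2 difference of the members was -0.09, beside 0.01 over all genes, and for mitotic cells it was 0.13, beside -0.01. The S38A and WT libraries did not overlap for 5 members in asynchronous cells, a separation that 49.1% of genes tested showed, and for 9 in mitotic cells, beside 54.6% of genes.

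Gspt1 averaged 417 ± 4.17 CPM (SD, n = 2) in S38A and 164 ± 11.4 (SD, n = 2) in WT asynchronous cells, and 275 ± 45.6 (SD, n = 2) against 88.6 ± 6.68 (SD, n = 2) in mitotic cells. Both S38A libraries exceeded both WT libraries in each state. The level was 2.53-fold higher in asynchronous cells (log2 1.34, SE 0.20, adjusted p = 4.93e-07) and 3.07-fold higher in mitotic cells (log2 1.62, SE 0.22, adjusted p = 4.52e-08). Both calls were kept in all 11 other settings run for each. Its partner Etf1 differed by -0.09 (SE 0.20, 95% interval -0.49 to 0.31, adjusted p = 0.857) and 0.27 (SE 0.16, 95% interval -0.06 to 0.59, adjusted p = 0.311) on the log2 scale.

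Eef2k averaged 88.9 ± 29.8 CPM (SD, n = 2) in S38A and 31.5 ± 16.3 (SD, n = 2) in WT asynchronous cells, a 2.83-fold difference (log2 1.50, SE 0.39, adjusted p = 0.00604). These groups held 60 and 17 reads in all. The call was lost without S38A asynchronous replicate 2 (log2 1.16, adjusted p = 0.155) or WT asynchronous replicate 2 (log2 0.99, adjusted p = 0.249), and DESeq2 gave no adjusted p for this gene. In mitotic cells the log2 difference was 1.05 (SE 0.47, adjusted p = 0.138).

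Among the other elongation factors, the differences from WT that passed the threshold were all in mitotic cells and smaller. Eef2 was 1.31-fold higher in S38A mitotic cells (log2 0.39, SE 0.11, adjusted p = 0.0121), and this call was lost without S38A mitotic replicate 2 (adjusted p = 0.117), WT mitotic replicate 1 (0.0889) or WT mitotic replicate 2 (0.0551). Eef1a1 was 1.29-fold higher there (log2 0.37, SE 0.13, adjusted p = 0.0492), a call kept in 2 of 11 other settings, whose adjusted p-values ran from 0.0132 to 0.216. It was lost without each of the 4 libraries compared (0.137 and 0.216 without S38A mitotic replicates 1 and 2, 0.201 and 0.142 without WT mitotic replicates 1 and 2), and among the rest with DESeq2 (0.0921). Eif5a was 1.39-fold lower (log2 -0.48, SE 0.13, adjusted p = 0.00586), lost without S38A mitotic replicate 1 (0.0539), S38A mitotic replicate 2 (0.0763) or WT mitotic replicate 2 (log2 -0.33, adjusted p = 0.24). In asynchronous cells the log2 differences were -0.09 for Eef2 (adjusted p = 0.731), -0.34 for Eef1a1 (adjusted p = 0.111) and -0.29 for Eif5a (adjusted p = 0.23).

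For the remaining members no difference between S38A and WT passed the threshold in either state. The log2 differences in asynchronous and mitotic cells were -0.22 and -0.16 for Eef1b2, -0.26 and -0.30 for Eef1d, -0.07 and -0.40 for Eef1g and 0.03 and -0.02 for Abce1. For Abce1 the 95% intervals were -0.32 to 0.38 and -0.33 to 0.30.

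The charge-mimicking form, S38D, was set against the same WT libraries, so the comparisons of the mutants with WT share their controls. Replicates were least alike in asynchronous S38D and asynchronous WT, at 2.25 and 2.05 chi-square per degree of freedom against counting error. Other groups ranged from 1.07 (mitotic S38D) to 1.40 (mitotic S38A), with mitotic WT at 1.20. The main fit took the spread of a gene from all 6 groups together, so its p-values for S38D against WT rest on other groups too. Non-overlap with WT was seen for 3 members in asynchronous cells, beside 41.3% of genes tested, and for 7 in mitotic cells, beside 43.3%. In asynchronous cells 2 of 10 members were called, both higher in S38D, against 3.33% of genes tested (1.48% higher and 1.85% lower). Eef1b2 averaged 903 ± 23.4 CPM (SD, n = 2) in S38D and 602 ± 138 (SD, n = 2) in WT, a 1.51-fold difference (log2 0.59, SE 0.14, adjusted p = 0.00568). That call was lost without WT asynchronous replicate 2 (log2 0.36, adjusted p = 0.364) and when only the groups compared entered the fit (adjusted p = 0.159). Gspt1 averaged 262 ± 32.5 CPM (SD, n = 2) in S38D, 1.59-fold above WT (log2 0.67, SE 0.20, adjusted p = 0.0439), a call kept in 3 of 11 other settings, whose adjusted p-values ran from 0.0252 to 0.249. It was lost without S38D asynchronous replicate 1 (0.227), WT asynchronous replicate 1 (0.249) or WT asynchronous replicate 2 (0.19), and with DESeq2 (0.164).

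In mitotic cells edgeR called 0 of 10 members between S38D and WT, against 1.82% of genes tested (0.702% higher and 1.12% lower); 2 had an unadjusted p under 0.05, beside 11.9% of genes tested. DESeq2 called 0 members among 58 genes in all and gave no adjusted p for Eef1g and Eef2k. The 2 were Eef1b2 (log2 0.36, SE 0.13, adjusted p = 0.162) and Eef2 (log2 0.30, SE 0.11, adjusted p = 0.197), and both passed the threshold when only the groups compared entered the fit (adjusted p = 0.00517 and 0.0143). Gspt1 differed by 0.37 in log2 terms (SE 0.27, 95% interval -0.17 to 0.92, adjusted p = 0.651).

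**Figure D3:**
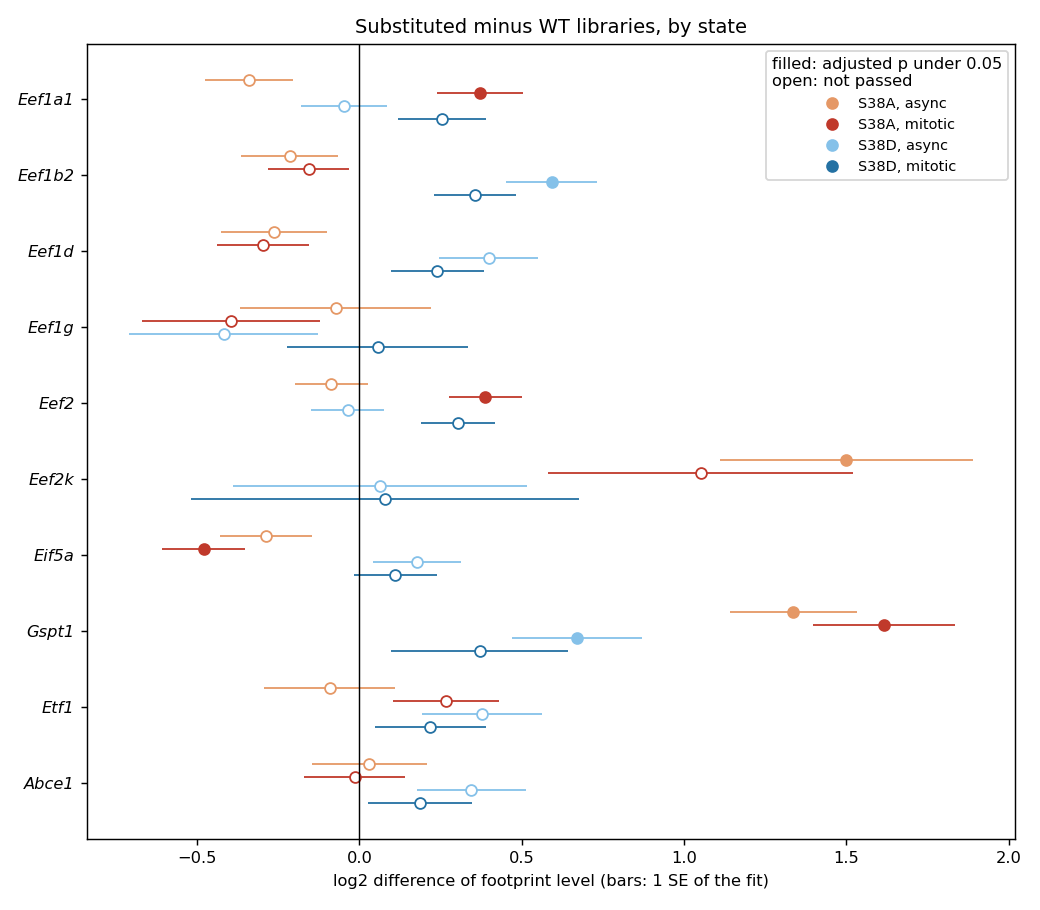
Log2 difference of each factor between S38A or S38D and WT within a state, as edgeR estimates, filled where the adjusted p is under 0.05, with lines of 1 SE to each side. Gspt1 is above 0 for S38A against WT in both states (1.34 and 1.62), and Eef2k has the longest lines.

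Between the substitutions themselves, the exchange subunits Eef1b2 and Eef1d, and Eif5a, were higher in S38D and Gspt1 was higher in S38A, in both states. In asynchronous cells 5 members were called, 3 higher in S38D and 2 lower, against 8.71% of genes tested (3.71% higher and 5.01% lower). In mitotic cells 4 were called, 3 higher and 1 lower, against 12.9% (6.14% higher and 6.77% lower). The libraries of S38D and S38A did not overlap for 7 members in asynchronous cells, beside 48.6% of genes tested, and for 9 in mitotic cells, beside 54.8%. Eef1b2 was 1.75-fold higher in S38D asynchronous cells (log2 0.81, SE 0.14, adjusted p = 2.83e-05) and 1.43-fold higher in S38D mitotic cells (log2 0.51, SE 0.13, adjusted p = 0.00283), the latter lost without S38D mitotic replicate 2 (adjusted p = 0.0631). Eef1d was higher by 0.66 (SE 0.15, adjusted p = 0.0023) and 0.54 (SE 0.14, adjusted p = 0.00656) on the log2 scale. The first was lost without S38A asynchronous replicate 1 (log2 0.45, adjusted p = 0.217), and the second without S38A mitotic replicate 1 (adjusted p = 0.052), S38A mitotic replicate 2 (0.0617) or S38D mitotic replicate 2 (0.087).

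Eif5a was higher in S38D by 0.46 in asynchronous cells (SE 0.14, adjusted p = 0.0198) and by 0.59 in mitotic cells (SE 0.13, adjusted p = 6.53e-04) on the log2 scale. The asynchronous call was lost without S38A asynchronous replicate 1 (log2 0.35, adjusted p = 0.305) or S38D asynchronous replicate 2 (log2 0.36, adjusted p = 0.169), and when only the groups compared entered the fit (adjusted p = 0.0533). Gspt1 was 1.59-fold lower in S38D asynchronous cells (log2 -0.67, SE 0.17, adjusted p = 0.00537) and 2.37-fold lower in S38D mitotic cells (log2 -1.25, SE 0.22, adjusted p = 2.49e-05). The asynchronous difference missed the threshold with DESeq2 (0.0594), without S38A asynchronous replicate 1 (0.0853) and without S38D asynchronous replicate 2 (0.0717). Eef2k was 2.71-fold lower in S38D asynchronous cells (log2 -1.44, SE 0.34, adjusted p = 0.00303), a call lost without S38A asynchronous replicate 2 (log2 -1.08, adjusted p = 0.148). Without S38D asynchronous replicate 1, Etf1 (log2 0.66, adjusted p = 0.0266) and Abce1 (log2 0.63, adjusted p = 0.0108) also passed, and so did Abce1 against WT (log2 0.67, adjusted p = 0.0122).

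Whether the change of state itself differed between genotypes was tested as an interaction. edgeR called 0 of 10 members for S38A against WT, against 0.448% of genes tested, 0 for S38D against WT, against 0.0598%, and 0 for S38D against S38A, against 0.239%. An unadjusted p under 0.05 was found for 2, 1 and 3 members, beside 9.16%, 6.56% and 10.5% of genes tested. DESeq2 called 1, 0 and 0 members, among 31, 2 and 3 genes in all, and gave no adjusted p for Eef1g, Eef2k and Gspt1 in the first of these comparisons. The 1 was Eef1a1, whose change in S38A exceeded that in WT by 0.71 in log2 terms (SE 0.19, 95% interval 0.33 to 1.09, adjusted p = 0.0641 with edgeR and 0.0228 with DESeq2). It also passed with library totals in place of TMM (0.04), with a mean of at least 10 CPM as the filter (0.0467) and without WT asynchronous replicate 1 (log2 0.78, adjusted p = 0.0373). For 2 of 10 members, Eef1a1 and Eef2, the states did not overlap and moved in opposite directions in S38A and WT, beside 4.56% of genes tested. Eef2 followed, with a difference of 0.47 (SE 0.16, 95% interval 0.16 to 0.79, adjusted p = 0.217). For Gspt1 the differences were 0.28 (SE 0.30, 95% interval -0.33 to 0.89) in S38A and -0.30 (SE 0.34, 95% interval -0.98 to 0.38) in S38D, each against WT.

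**Figure D4:**
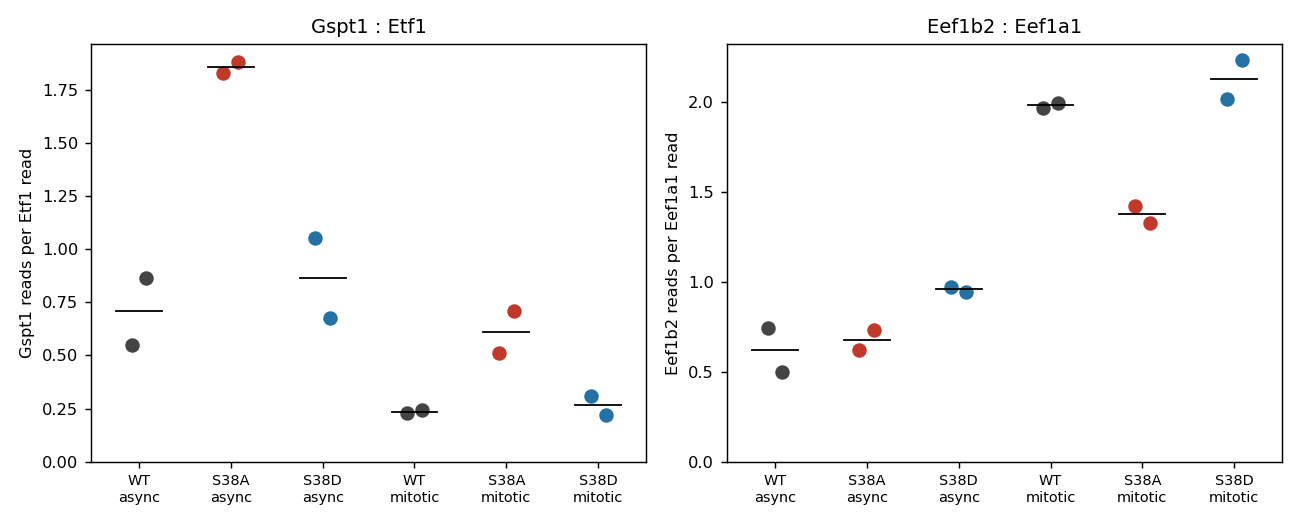
Gspt1 reads per Etf1 read and Eef1b2 reads per Eef1a1 read, by genotype and state, on axes from 0; points are libraries and lines the mean of 2. Gspt1 per Etf1 is lower in mitotic cells of each genotype and highest in S38A, and Eef1b2 per Eef1a1 rises from 0.5 to 0.970 in asynchronous to 1.33 to 2.24 in mitotic libraries.

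The order of the 6 groups also differed between members. For Eef1b2 the means ran from S38A asynchronous, 516 CPM, through WT and S38D asynchronous and S38A and WT mitotic to S38D mitotic, 2029.7 CPM, and the ranges of the neighbours overlapped at the lowest pair only. For Gspt1 the order ran from WT mitotic through S38D mitotic, WT asynchronous, S38D asynchronous and S38A mitotic to S38A asynchronous, and the neighbours S38D asynchronous and S38A mitotic overlapped. For Eef1a1 the highest group was S38A mitotic, just apart from WT asynchronous, and the lowest was S38A asynchronous, which overlapped WT mitotic. For Abce1 every neighbour overlapped except S38D mitotic, the highest, against WT mitotic.

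The gene whose log2 CPM most resembled that of Eef1a1 over the 12 libraries, among 4258 others averaging at least 50 CPM, was ENSMUSG00000020708.12 (Pearson r = 0.896). For Eef2 it was ENSMUSG00000008373.16 (r = 0.871), and for Abce1 ENSMUSG00000069301.5 (r = 0.958). These are descriptions, since the 12 points share their libraries and fall into the same 6 groups.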

How the data were processed

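Ribosome footprints were counted in 12 libraries, 2 in each of 6 groups taken from the labels. The authors deposited unnormalized read counts per gene, 1 table per library, with 5 summary rows that entered neither totals nor tests. Tools in the submitters' processing notes, without roles, are HTSeq 0.9.1, STAR 2.5.3a, Bowtie2 2.3.2, DESeq2 1.18.1 and bcl2fastq 2.16.0.10, and the build is mm10. That reads were counted over coding sequence stands only in the file naming, and for strand use nothing is stated. No columns of per-sample values were left unused.

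Counts were filtered with edgeR 4.0.16 in R 4.3.3 (filterByExpr, minimum count 10), scaled by TMM and fitted as 6 groups, or as genotype plus state for the averaged change. CPM are relative to TMM-scaled totals of tested genes. The fit was tested on simulated data. A simulated log2 change of 1 was called for 89.5% of such genes in the averaged change of state and 37.8% in WT. The share was 42% for S38A against WT in asynchronous cells and 13.4% for the interaction of S38A and WT. At a log2 change of 0.5 the shares, in this order, were 38.1%, 3.06%, 1.05% and 1.02%. The fits behind these shares called 126, 41, 44 and 14 genes in all, against 2604, 1231, 624 and 30 in the libraries themselves. The shares were not taken for the members. Eef2, for example, was called in WT at a log2 change of -0.35. How often a change would be called in a gene with as many reads as a given member was not tested. A member not called is still not shown to be unchanged. DESeq2 1.42.0 was an alternative, as were DESeq2 size factors, library totals, other filters, fits of only the groups compared, a replicate block and leaving out each library. Counting error only is covered by the floor of 3 reads. All 10 members were tested in every comparison. A value is given for each in the averaged change of state and in S38A against WT, and for some members only in the other comparisons. Of the genes most like Eef1a1, Eef2 and Abce1, the first of each is named. The members and lists were chosen with earlier results of these data known. The reference table paired no Ensembl IDs with symbols, so 7 gene lists written by symbol (paralogs, modifying enzymes, rescue, stalk including Rpl12, tRNA synthetases, mitochondrial factors, cell type markers) were not used here, and the labelled cell type was not checked. No pairing of the libraries by replicate number was seen, though counting error could hide one.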

Additional observations from a re-analysis of the deposited data

Results flagged for a closer look

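The estimated change of state of Eef1a1 ran in opposite directions in WT (log2 -0.28, not called) and S38A (log2 0.43, called). The S38A call was lost without S38A asynchronous replicate 2 or either S38A mitotic replicate. Both WT mitotic libraries lay below both WT asynchronous ones, and both S38A mitotic libraries lay above both S38A asynchronous ones. The difference between the changes was 0.71 on the log2 scale, and its adjusted p by edgeR was 0.0641, so it missed the threshold. The same arrangement of libraries was seen for Eef2, with a difference of 0.47 and an adjusted p by edgeR of 0.217. The change of Eef2 in S38A was 0.12 in log2 terms and was not called. Of all genes tested, 4.56% had such opposite changes without overlap in these genotypes.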

How the results depend on the processing

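Of the 44 calls of members over 13 comparisons, 22 were kept in every alternative run and all 44 kept their sign. The count of members called changed by over 1.5 times as follows; where no reason is given, the cause was not tested. With DESeq2's Wald test it was 5 in place of 8 for the change of state in S38A (565 of all genes in place of 1246), 1 in place of 2 for S38A against WT (238 in place of 624) and for S38D against WT (66 in place of 223) in asynchronous cells, 3 in place of 5 between the substitutions in asynchronous cells (152 in place of 583), and 1 in place of 0 for the interaction of S38A and WT (31 in place of 30). Among the missing members for S38A's change of state, for S38A against WT and between the substitutions was Eef2k, for which DESeq2 gave no adjusted p. It was 1 in place of 2 for S38D against WT in asynchronous cells with DESeq2 size factors (231 of all genes) or library totals (236). The interaction count was 1 with library totals (36 of all genes) and with the filter on mean CPM (34). With only the groups compared in the fit, S38D against WT gave 0 in asynchronous (70 of all genes) and 2 in mitotic cells (228). Such a fit leaves out the spread of the remaining groups, and replicates varied more in the asynchronous pair of groups than in the mitotic pair. Whether that moved these counts was not tested.

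Leaving out 1 library at a time, where the lone library left is assumed to vary like the other groups, gave 7 averaged calls throughout (2372 to 2563 of all genes, against 2604 with every library), 4 to 5 in WT (647 to 959 against 1231), 4 to 6 in S38A (702 to 840 against 1246) and 4 to 6 in S38D (782 to 1276 against 1435). For S38A against WT it gave 1 to 2 in asynchronous cells (262 to 422 of all genes, against 624) and 1 to 2 in mitotic cells (443 to 550 against 885). For S38D against WT it gave 0 to 2 (104 to 221 against 223) and 0 (39 to 60 against 122), and between the substitutions 2 to 7 (158 to 477 against 583) and 2 to 4 (371 to 487 against 864). The interaction of S38A and WT gave 0 to 1 (20 to 42 against 30), that of S38D and WT 0 (1 to 14 against 4) and that of S38D and S38A 0 (4 to 35 against 16).

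The correlations of same-numbered libraries' deviations over 15 pairs of groups ran from -0.232 to 0.0918, so no pairing by replicate number was seen. In some groups, such as mitotic S38D (1.07, see above), replicates differed by little more than counting error, which could hide a pairing. With a replicate block the count for S38D against WT in asynchronous cells was 1 (206 of all genes), the call of Eef1a1 between S38A and WT in mitotic cells was lost (adjusted p = 0.0643), and no other call of a member changed but Gspt1 in the former (adjusted p = 0.0564).

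Directions that reversed belonged to differences that were not called, and those of the averaged change and of S38A against WT follow. Others are not listed, such as the change of state of Eef2 in S38D, which kept its sign in 5 of 11 other settings. Abce1 in S38A against WT was -0.020 in asynchronous cells with library totals, and in mitotic cells 0.0068 with no filter and 0.015 with the filter on mean CPM. Leaving out 1 library at a time gave, on the log2 scale, -0.067 to 0.10 (asynchronous) and -0.089 to 0.10 (mitotic) for Abce1, -0.46 to 0.0089 for Eef1b2, -0.41 to 0.39 for Eef1g and -0.36 to 0.15 for Etf1 in asynchronous S38A against WT, and -0.028 to 0.13 for the averaged change of Eef1a1. Few reads limit Eef2k and Eef1g.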
